A study of Danio rerio with 6 samples.

Results

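The zebrafish distal-less (*dlx*) homeobox genes comprise 8 of the 32266 genes with a row in the deposited counts, chosen by their Ensembl identifiers and chromosomes: *dlx3b*, *dlx4b*, *dlx4a*, *dlx1a*, *dlx2a*, *dlx2b*, *dlx5a* and *dlx6a*. All 8 identifiers lay on the chromosome that the choice required, so none was dropped. *dlx3b* and *dlx4b* are the genes whose products were depleted in the experiment, and the others are the relatives that remained untargeted. RNA was sequenced from DsRed-positive cells, sorted by fluorescence at late stages of the otic-epibranchial progenitor domain (OEPD), the posterior placodal ectoderm that gives rise to the inner ear and epibranchial placodes. The *dlx3b/4b* morphant group comprised 3 samples from embryos injected with antisense morpholino oligomers against both genes at the one-cell stage. They were set against 3 samples of wild-type embryos, for which no control injection is described, so that effects of injection and of Dlx3b/4b depletion cannot be told apart. Embryos of both groups carried the heterozygous *pax8*:DsRed transgene, whose *pax8* elements also drive the reporter in the nephric anlagen, so each sample mixes cells of both tissues. Whether the morpholinos block translation or splicing is not given in the sources used here, and the transcript levels of *dlx3b* and *dlx4b* are therefore no measure of how far their proteins were depleted.

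Dlx proteins are homeodomain transcription factors that activate genes in the ectoderm, the forebrain and the branchial arches. Most *dlx* genes lie in tail-to-tail pairs whose partners share regulatory elements and are often expressed in the same places. In zebrafish, *dlx3b* and *dlx4b* mark the border of the neural plate, where Bmp and Fgf signals and the related Msx factors also act, and they are needed for the otic and olfactory placodes.

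Counts on genes totalled 23846555 to 26250129 in the morphant samples and 27373965 to 28480101 in the wild-type samples. At these depths 3 counts, the floor used for a count of 0, correspond to 0.105 to 0.126 CPM (counts scaled to a common library total), which covers counting error only. This floor used unscaled library totals, whereas the CPM levels below used TMM-scaled totals. Of all listed genes, 17526 passed the filter on low counts and entered edgeR's quasi-likelihood test. Its p-values were adjusted after Benjamini and Hochberg, and a gene was called at an adjusted p below 0.1. Both tissues of the gate were present: *pax8* averaged 334.2 ± 75.9 CPM in morphant and 260.1 ± 39.3 CPM in wild-type samples (SD, n = 3 each), and all 5 OEPD and otic markers and all 6 nephric markers were detected. Markers of other cells were detected too, which does not show which of the sorted cells carried them. The summed level of 5 epidermis markers was 692.1 to 1139 CPM in morphant and 705.2 to 1697 CPM in wild-type samples. That of 3 blood markers was 764.5 to 804.6 CPM in morphant and 995.0 to 1399 CPM in wild-type samples. In such bulk samples, fewer cells of a type and less RNA per cell cannot be told apart.

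For *dlx3b* and *dlx4b*, no difference between *dlx3b/4b* morphant and wild-type samples exceeded the spread between replicates, and this spread was among the widest of all tested genes. *dlx3b* (ENSDARG00000014626) lies on chromosome 12 at 5673443 to 5676963 on the plus strand, with 3 exons of 1591 bp in all, in coordinates for which the sources name different builds of the zebrafish genome (GRCz10 in the submitters' notes). In replicates 1, 2 and 3 its level was 51.2, 78.7 and 179.8 CPM for the morphant and 48.0, 144.1 and 30.2 CPM for the wild-type samples. Morphant replicate 3 and wild-type replicate 2 were high, the other 4 samples were low, and the groups overlapped. The means were 103.2 ± 67.7 CPM in morphant and 74.1 ± 61.3 CPM in wild-type samples, a log2 fold change of 0.54 with a standard error (SE) of 0.53, a 95% interval of −0.66 to 1.74 and an adjusted p of 0.595 in edgeR's test. On a linear scale this interval runs from 0.632-fold to 3.34-fold. Within a group the highest sample exceeded the lowest 3.51-fold in morphant and 4.77-fold in wild-type samples, and the within-group SD of log2 CPM stood at the 97.5th percentile of all tested genes.

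*dlx4b* (ENSDARG00000071560), the partner of *dlx3b* in the ear, lies on the minus strand of the same chromosome at 5684659 to 5693798, with 1291 bp of exon. It reached 4.26, 8.47 and 23.9 CPM in morphant replicates 1, 2 and 3, against 6.16, 25.2 and 3.84 CPM in the wild-type replicates 1, 2 and 3. The same pair of samples, morphant replicate 3 and wild-type replicate 2, stood above the other 4, and the groups overlapped. With means of 12.2 ± 10.4 CPM in morphant and 11.7 ± 11.7 CPM in wild-type samples, the log2 fold change was 0.08 (SE 0.68, 95% interval −1.47 to 1.62, adjusted p = 0.959, edgeR). The highest sample exceeded the lowest 5.62-fold in morphant and 6.56-fold in wild-type samples, which placed the within-group spread at the 99.3rd percentile.

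Single samples decided the direction of both fold changes. Fits without 1 sample held no term for the replicate number, whereas the main fit and those without a replicate number of both groups did. Without replicate 3 of both groups, *dlx3b* was called lower in morphant samples, with a log2 fold change of −0.37 (adjusted p = 0.0982, edgeR), and so was *dlx4b*, with −1.07 (adjusted p = 0.00306). That fit called 3955 of all tested genes, against 1911 in the main fit. Without replicate 2 of both groups, *dlx3b* was called higher, with 1.34 (adjusted p = 0.0965), and without wild-type replicate 2 alone with 1.40 (adjusted p = 0.0792). The log2 fold change of *dlx3b* was also negative without morphant replicate 3, at −0.18, and that of *dlx4b* without morphant replicate 3, wild-type replicate 1 or wild-type replicate 3, at −0.87, −0.25 and −0.36.

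**Figure D1:**
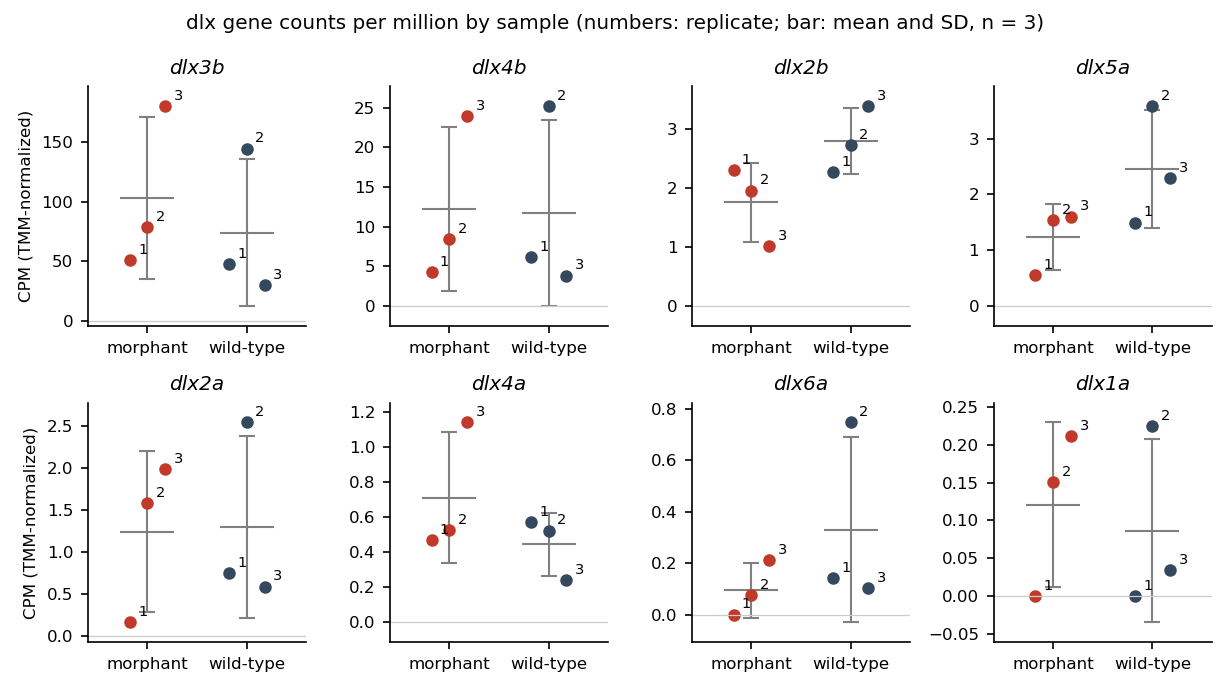
CPM, scaled by TMM factors, of the 8 *dlx* genes in each sample, with morphant samples in red on the left and wild-type samples in blue on the right; numbers are replicates, and bars give the mean and SD (n = 3). Morphant replicate 3 and wild-type replicate 2 were the highest of their groups in 6 of the 8 genes, not in *dlx2b* and *dlx4a*. In *dlx5a*, morphant replicates 2 and 3 were nearly level, at 1.54 and 1.605 CPM.

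Levels of different genes were compared per kb of exon, as CPM divided by the exon length in kb (RPKM). *dlx3b* was by far the most abundant family member, with 32.2, 49.5 and 113.0 RPKM in morphant replicates 1, 2 and 3 and 30.2, 90.6 and 19.004 RPKM in wild-type replicates 1, 2 and 3. Its mean stood at the 94.8th percentile of the 25598 genes with at least 1 count. *dlx4b* followed at the 76.4th percentile, with a mean over the 6 samples of 9.28 RPKM, against 55.7 RPKM for *dlx3b*. Of the summed RPKM of all 8 genes, *dlx3b* made up 84.9%, 82.4% and 83.2% in morphant replicates 1, 2 and 3, against 78.2%, 77.3% and 71.4% in wild-type replicates 1, 2 and 3. *dlx4b* contributed 8.70%, 10.9% and 13.7% in the morphant samples, against 12.4%, 16.7% and 11.2% in the wild-type samples. In every sample the 2 knockdown targets thus held most of the family's transcripts, and the share of *dlx3b* was higher in each morphant sample than in each wild-type sample, a description on which no test was run.

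The 6 other members had means over the 6 samples of 1.499 RPKM for *dlx2b*, 1.42 for *dlx5a*, 0.727 for *dlx2a*, 0.484 for *dlx4a*, 0.117 for *dlx6a* and 0.0854 for *dlx1a*. The step from *dlx4b* to *dlx2b* was the only one between neighbours in this order at which the ranges did not overlap, with 2.98 to 19.5 RPKM for *dlx4b* and 0.666 to 2.23 RPKM for *dlx2b*. *dlx2b* exceeded *dlx5a* in 4 of 6 samples, *dlx2a* exceeded *dlx4a* in 4, and *dlx6a* exceeded *dlx1a* in 3, so the order of these neighbours is not settled by the samples. *dlx3b* exceeded *dlx4b*, *dlx5a* exceeded *dlx2a*, and *dlx4a* exceeded *dlx6a* in all 6.

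**Figure D2:**
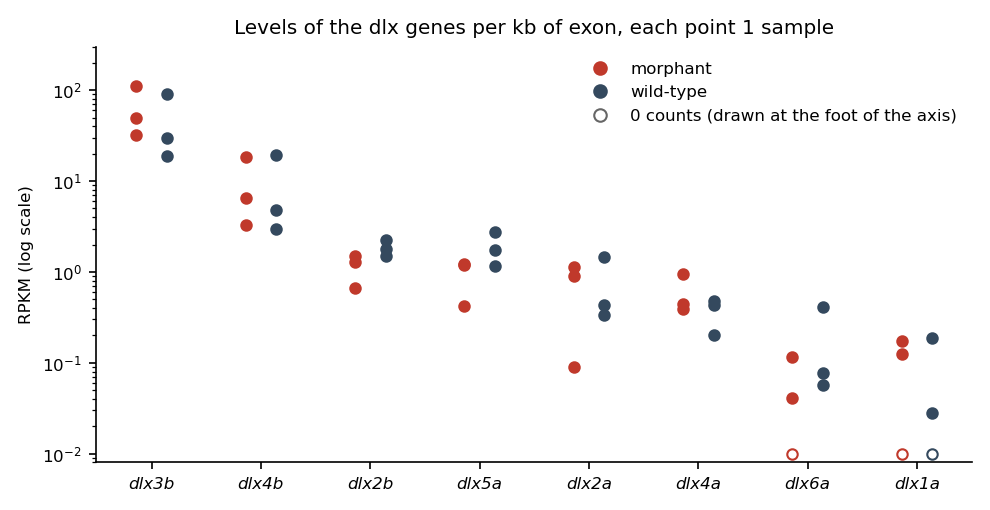
RPKM of each *dlx* gene on a log axis, with 1 point a sample, morphant in red and to the left of wild-type in blue; open circles mark samples with 0 counts. *dlx3b* spans 19.004 to 113.0 RPKM, and the members after *dlx4b* reach at most 2.76 RPKM.

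*dlx5a* and *dlx6a*, a pair known from the branchial arches, the forebrain and the otic placode, had fewer counts. *dlx5a* (ENSDARG00000042296; chromosome 19, 41885161 to 41887173, minus strand, 1302 bp of exon) was at 0.547, 1.54 and 1.605 CPM in morphant replicates 1, 2 and 3, against 1.496, 3.59 and 2.30 CPM in the wild-type replicates 1, 2 and 3. The 3 morphant samples lay at the low end, but the groups overlapped, because wild-type replicate 1 was below morphant replicates 2 and 3. Its mean was 1.23 ± 0.594 CPM in morphant and 2.46 ± 1.06 CPM in wild-type samples, and the log2 fold change of −1.04 (SE 0.36, 95% interval −1.86 to −0.21) had an unadjusted p of 0.0192 and an adjusted p of 0.137 in edgeR's test. *dlx5a* therefore did not pass the test. It passed in 2 other settings, with no filter on low counts (adjusted p = 0.0822) and without replicate 3 of both groups (log2 fold change −1.29, adjusted p = 0.0833).

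*dlx6a* (ENSDARG00000042291; chromosome 19, 41834464 to 41881986, plus strand, 1823 bp of exon) had 0, 2 and 5 counts in morphant replicates 1, 2 and 3, against 4, 20 and 3 counts in wild-type replicates 1, 2 and 3. Of the 27 wild-type counts, 20 came from replicate 2 alone, and the morphant samples had 7 in all. The gene did not pass the filter, and an exact two-sided permutation test on CPM gave p = 0.4, where 3 samples against 3 cannot give less than 0.1. The 0 counts in morphant replicate 1 allow up to 3 counts (0.114 CPM by its unscaled total), as many as wild-type replicate 3 had.

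*dlx1a* and *dlx2a* form the pair best known from the ventral forebrain and the branchial arches. *dlx2a* (ENSDARG00000079964; chromosome 9, 3425857 to 3429216, minus strand, 1741 bp of exon) was at 0.156, 1.58 and 1.98 CPM in morphant replicates 1, 2 and 3, against 0.748, 2.54 and 0.583 CPM in the wild-type replicates 1, 2 and 3. Morphant replicate 1, with 4 counts, was the lowest and wild-type replicate 2 the highest sample, so that the groups overlapped. The log2 fold change was −0.21 (SE 0.68, 95% interval −1.74 to 1.32, adjusted p = 0.889, edgeR), between means of 1.24 ± 0.961 CPM in morphant and 1.29 ± 1.09 CPM in wild-type samples. Its within-group spread stood at the 99.7th percentile, with a 12.7-fold range among morphant and a 4.36-fold range among wild-type samples. The direction turned with single samples, as the log2 fold change was 0.47 without morphant replicate 1, 0.89 without wild-type replicate 2, 0.46 without replicate 1 and 0.12 without replicate 2 of both groups.

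*dlx1a* (ENSDARG00000013125; chromosome 9, 3416570 to 3418577, plus strand, 1211 bp of exon) had 0, 4 and 5 counts in morphant replicates 1, 2 and 3, against 0, 6 and 1 counts in wild-type replicates 1, 2 and 3. A difference between the groups was not detectable at this depth, as the 9 morphant and 7 wild-type counts gave p = 1 in the exact permutation test on CPM. The replicates numbered 1 of both groups had no *dlx1a* count, which allows up to 0.114 CPM in the morphant and 0.107 CPM in the wild-type sample.

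*dlx2b* and *dlx4a* have no listed partner at their loci. *dlx2b* (ENSDARG00000017174; chromosome 1, 30174005 to 30175776, minus strand, 1521 bp of exon), known from the forebrain and the developing teeth, was at 2.30, 1.96 and 1.01 CPM in morphant replicates 1, 2 and 3, against 2.28, 2.73 and 3.398 CPM in the wild-type replicates 1, 2 and 3. Its order of samples differed from that of the other members, with morphant replicate 3 lowest and wild-type replicate 3 highest, and the groups overlapped only in that morphant replicate 1 was just above wild-type replicate 1. The means of 1.76 ± 0.668 CPM in morphant and 2.80 ± 0.563 CPM in wild-type samples gave a log2 fold change of −0.70 (SE 0.40, 95% interval −1.60 to 0.19, adjusted p = 0.329, edgeR).

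*dlx4a* (ENSDARG00000011956; chromosome 3, 34540568 to 34551913, plus strand, 1195 bp of exon), a gene of the branchial arches, had 12, 14 and 27 counts in morphant replicates 1, 2 and 3, against 16, 14 and 7 counts in wild-type replicates 1, 2 and 3. Morphant replicate 3 was high, wild-type replicate 3 was low, and the other 4 samples lay close together. In CPM the means were 0.712 ± 0.372 in morphant and 0.444 ± 0.178 in wild-type samples, and the log2 fold change was 0.62 (SE 0.67, 95% interval −0.89 to 2.13, adjusted p = 0.629, edgeR). It was −0.11 without replicate 3 of both groups.

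Across the family, 6 of the 8 genes passed the filter and 0 of the 6 were called with edgeR's test, against 10.9% of all tested genes, with 4.85% higher and 6.05% lower in morphant samples. At an unadjusted p under 0.05 the count was 1, *dlx5a*, and the share of all tested genes under that value was not taken. DESeq2 called 0 both with and without a term for the replicate number. The median log2 fold change of the 6 was −0.07, with 3 positive and 3 negative, against −0.01 for all tested genes. The groups did not overlap in 0 of the 8 *dlx* genes, against 31.5% of all tested genes. For *dlx3b*, *dlx4b*, *dlx4a*, *dlx2a* and *dlx2b* the 95% interval includes 0, and for *dlx5a* it does not.

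**Figure D3:**
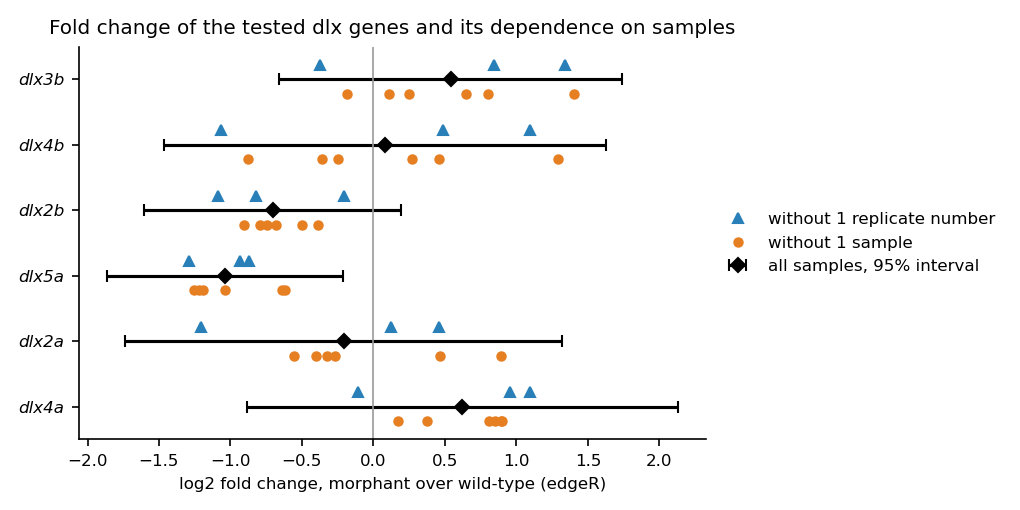
Log2 fold change, morphant over wild-type, of the 6 tested *dlx* genes from edgeR, with the 95% interval (black) and the values without 1 replicate number of both groups (triangles) or without 1 sample (circles). The fits without 1 sample held no term for the replicate number. The values of *dlx2b* and *dlx5a* stay below 0, whereas those of *dlx3b*, *dlx4b*, *dlx2a* and *dlx4a* lie on both sides of 0.

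The 3 pairs were compared within samples, where the ratio of partners does not depend on the total count of the sample. In each pair the genes pointed towards each other with no other listed gene between them, at a distance of 7695 bp for *dlx3b* and *dlx4b*, 3174 bp for *dlx5a* and *dlx6a*, and 7279 bp for *dlx1a* and *dlx2a*. The ratio of *dlx3b* to *dlx4b* RPKM, with 0.5 counts added to each gene, was 9.73, 7.52 and 6.09 in morphant replicates 1, 2 and 3, against 6.30, 4.63 and 6.36 in wild-type replicates 1, 2 and 3. The groups overlapped, because morphant replicate 3 was below wild-type replicates 1 and 3. The mean log2 ratio was 2.93 ± 0.34 in morphant and 2.51 ± 0.26 in wild-type samples, a difference of 0.42 with p = 0.3 in an exact two-sided permutation test, and between 0.25 and 0.58 with any 1 sample left out. While each of the 2 genes varied 3.51-fold to 6.56-fold within a group, their ratio stayed between 4.63 and 9.73 in all 6 samples.

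The ratio of *dlx5a* to *dlx6a* was higher in morphant samples by 0.66 on the log2 scale, but not beyond the spread (4.39 ± 1.03 in morphant and 3.73 ± 1.02 in wild-type samples, exact permutation p = 0.5), and with 5 counts added the difference was −0.27. The ratio of *dlx1a* to *dlx2a* did not overlap, with a mean log2 ratio of −2.65 ± 0.06 in morphant and −3.60 ± 1.13 in wild-type samples. This difference of 0.95 had an exact permutation p of 0.1, the smallest that the design allows, and was 0.30 without wild-type replicate 1. With 5 counts added in place of 0.5 the difference was 0.46, with an exact permutation p of 0.7. It rests on at most 6 *dlx1a* counts a sample, with 0 in wild-type replicate 1 and in morphant replicate 1, where *dlx2a* had 4 counts. In these samples the *dlx1a* side of the ratio is only the 0.5 counts added.

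*dlx3b* and *dlx4b* varied together over the samples, with a Pearson r of 0.965 between their log2 CPM over the 6 samples, given as a description. Of the 17520 tested genes other than *dlx* genes, 33 were more like *dlx3b* than *dlx4b* was. The 5 genes most like *dlx3b* were *atp5mea* (r = 0.987), *GADD45B* (0.987), *irx7* (0.986), *mcrip2* (0.986) and *lipia* (0.985). Among them *irx7*, an Iroquois homeobox gene, had a comparable range, with 5.98, 11.4 and 23.3 CPM in morphant replicates 1, 2 and 3 and 5.74, 15.0 and 3.91 CPM in the wild-type replicates 1, 2 and 3. The 5 genes most like *dlx4b* were *SEPTIN5* (0.994), *PRSS12* (0.990), *MRPL17* (0.990), *WDR83OS* (0.989) and *zgc:136864* (0.988), some of which varied far less, such as *MRPL17*, at 31.6 to 34.9 CPM in morphant and 31.5 to 35.0 CPM in wild-type samples. With ranks in place of log2 CPM, 4 of the 5 genes remained for *dlx3b* and 3 of the 5 for *dlx4b*.

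The pattern of high values in morphant replicate 3 and wild-type replicate 2 reached across the family and to markers of other cells. Both samples were the highest of their groups for *dlx3b*, *dlx4b*, *dlx1a*, *dlx2a*, *dlx5a* and *dlx6a*, which is 6 of the 8 genes, against 18.9% of all tested genes (3312). The pattern was itself described from *dlx3b* and *dlx4b*, so their part in the 6 is no support for it. The same held for all 5 epidermis markers, for 15 of the 20 preplacodal and OEPD factors and for 3 of 4 forebrain markers. It held for only 2 of the 5 OEPD and otic markers, *foxi1* and *sox9b*, and not for *pax8*, *pax2a* and *pax2b*. Of the nephric, blood and muscle markers it held for 0. *dlx1a* and *dlx6a* are not among the tested genes over which the share of 18.9% was taken. For *dlx1a* the order rests on 5 counts in morphant replicate 3 against 4 in morphant replicate 2. For *dlx5a* morphant replicate 3 had 38 counts and morphant replicate 2 had 41. Only after scaling was replicate 3 the higher, at 1.605 against 1.54 CPM. Summed over the list, the epidermis markers (*krt4*, *krt5*, *tp63*, *cdh1* and *cldni*) had 692.1, 1028 and 1139 CPM in morphant replicates 1, 2 and 3, against 705.2, 1697 and 911.7 CPM in the wild-type replicates 1, 2 and 3. The forebrain markers (*foxg1a*, *emx3*, *six3b* and *rx3*) had 7.85, 21.1 and 34.6 CPM in the morphant samples, against 16.8, 26.3 and 11.9 CPM in the wild-type samples. Within each group, both lists were thus highest in the sample with the most *dlx3b*. The share of counts on mitochondrial genes was 2.02% to 2.21% in the morphant samples and 2.097% to 4.63% in the wild-type samples, with wild-type replicate 2 highest, and its part in these levels was not tested.

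The sums of the olfactory placode and neural crest markers had the sample order of *dlx3b* within both groups, but most single members did not. Morphant replicate 3 and wild-type replicate 2 were the highest of their groups for 1 of 3 olfactory markers, *ebf2*, and 1 of 5 crest markers, *sox10*. *sox10* alone had 56.2 CPM in wild-type replicate 2, whereas *crestin*, *twist1a* and *snai1b* were lowest there among the wild-type samples. The olfactory placode markers (*emx2*, *foxn4* and *ebf2*) summed to 4.34, 11.3 and 13.1 CPM in morphant replicates 1, 2 and 3, against 17.5, 34.4 and 14.6 CPM in the wild-type replicates 1, 2 and 3, and the neural crest markers to 27.4, 39.8 and 47.3 CPM in morphant, against 37.7, 71.7 and 32.4 CPM in wild-type samples. Among the crest markers *foxd3* was at 0 counts in all 6 samples. The summed nephric markers ran the other way within the morphant samples, at 1639, 1396 and 1241 CPM, against 1915, 1601 and 1829 CPM in the wild-type samples. Much of each sum was *hnf1bb*, at 889.6, 728.2 and 574.9 CPM in the morphant and 1219, 908.0 and 1126 CPM in the wild-type samples. *wt1a* and *hnf1ba* also fell from morphant replicate 1 to 3. *lhx1a* and *osr1* were instead lowest in morphant replicate 2, and *cdh17* was lowest in morphant replicate 1. The sum of the muscle markers *myod1* and *myf5* stayed between 6.35 and 12.4 CPM in all samples. Whether other cells had a part in the levels of the *dlx* genes was not tested.

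**Figure D4:**
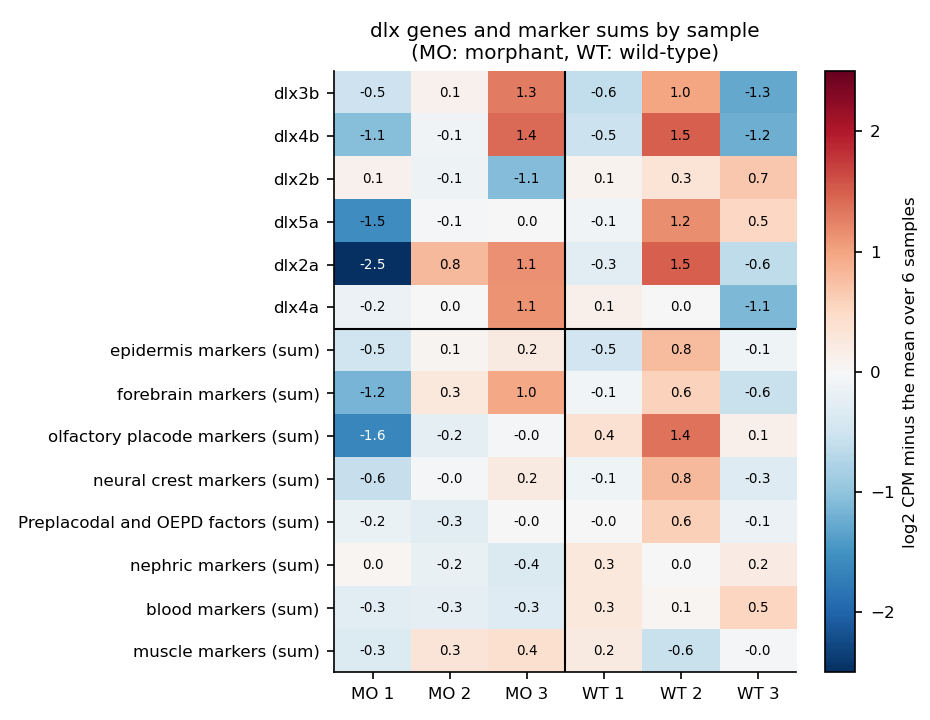
Log2 CPM minus the mean over the 6 samples for the 6 tested *dlx* genes (above the line) and for the summed markers of each cell type (below it), with the morphant samples (MO) left of the wild-type samples (WT) and red above the mean. *dlx3b*, *dlx4b* and the forebrain markers are above their mean in MO 3 and WT 2, whereas the nephric markers are below theirs in MO 3. The list of OEPD and otic markers is not drawn.

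Between the groups, markers of cells outside the OEPD also differed. The erythroid genes *gata1a* and *hbbe3* fell in morphant samples (2 of 3 blood markers), as did *emx2* (1 of 2 tested olfactory markers), *cdh1* (1 of 5 epidermis markers), and *cdh17* and *hnf1bb* (2 of 6 nephric markers). The nephric gene *osr1* and the crest and mesoderm gene *twist1a* rose, each as 1 member of its list. Of all tested genes, 6.05% were called lower and 4.85% higher. Without the replicate block all 3 blood markers were called lower, with *tal1* at an adjusted p of 0.0945. *cdh17*, *gata1a*, *cdh1* and *osr1* were called in all 9 fits with samples left out. The call of *twist1a* was kept only without replicate 3 of both groups or without wild-type replicate 1. That of *hnf1bb* was lost without replicate 1 of both groups, morphant replicate 2 or 3, or wild-type replicate 1 or 3, that of *hbbe3* without morphant replicate 3 or wild-type replicate 1 or 3, and that of *emx2* without replicate 1 of both groups. No forebrain (4 tested) and no muscle marker (2 tested) was called with edgeR, none had an unadjusted p under 0.05, and DESeq2 called 0. The part of these cells in the *dlx* levels was not tested.

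Of the 10 nearest listed genes on the sides of the 5 loci, 4 had 0 counts in all samples, among them both neighbours of the *dlx3b*/*dlx4b* pair. Of the 6 that were tested, 1 was called, against 10.9% of all tested genes. It was *HAT1*, a histone acetyltransferase gene beside *dlx1a*, at 49.8 ± 0.719 CPM in morphant and 63.6 ± 3.12 CPM in wild-type samples (log2 fold change −0.35, SE 0.10, adjusted p = 0.0878, edgeR). This call was lost with DESeq2 and the replicate term (adjusted p = 0.119) and in 5 of the 9 fits with samples left out, those without replicate 1, replicate 2 or any 1 morphant sample. *AGO2*, on the side of *dlx5a*, was not called (log2 fold change 0.58, adjusted p = 0.121), but passed without the replicate block (adjusted p = 0.0917). The gene *PDK4* runs on the minus strand across *dlx5a* and *dlx6a*, although no exon of it overlaps theirs, and was not called, at 5.69 ± 0.595 CPM in morphant and 7.73 ± 0.299 CPM in wild-type samples (log2 fold change −0.45, adjusted p = 0.241).

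Msx factors are homeodomain repressors that pair with Dlx proteins and oppose them at the border of the neural plate. Of 5 listed *msx* genes 4 were paired with an identifier and tested, and 2 of them rose in morphant samples while none was called lower, against 4.85% higher and 6.05% lower of all tested genes. *msx3* was at 74.7, 60.2 and 63.5 CPM in morphant replicates 1, 2 and 3, against 45.5, 35.0 and 38.5 CPM in the wild-type replicates 1, 2 and 3, with no overlap (log2 fold change 0.74, SE 0.11, adjusted p = 0.00839, edgeR). *msx2b* was at 30.1, 17.4 and 15.4 CPM in the morphant samples, against 13.4, 9.16 and 11.1 CPM in the wild-type samples, again with no overlap and with morphant replicate 1 highest (log2 fold change 0.86, SE 0.18, adjusted p = 0.0283). *msx1b* and the nearly absent *msx2a* had log2 fold changes of 0.16 and 1.36, and their groups overlapped. The median of the list was 0.80, against −0.01 for all tested genes. Neither *msx3* nor *msx2b* was called without replicate 1 of both groups. That fit called 185 of all tested genes, against 1911 in the main fit. *msx2b* was not called without morphant replicate 1 or 2 or wild-type replicate 2 or 3 either.

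Among 20 preplacodal and OEPD transcription factors, 3 fell in morphant samples and 0 were called higher, against 6.05% lower and 4.85% higher of all tested genes. *sox9b*, a Sox factor of the otic placode, was at 26.8, 34.6 and 54.9 CPM in morphant replicates 1, 2 and 3, against 106.4, 437.4 and 89.5 CPM in the wild-type replicates 1, 2 and 3 (log2 fold change −2.11, SE 0.45, adjusted p = 0.0317, edgeR). All morphant samples were below all wild-type samples, and within each group the order of samples was that of *dlx3b* with the high values in morphant replicate 3 and wild-type replicate 2. The log2 fold change of *sox9b* was −1.33 without wild-type replicate 2, −1.34 without replicate 2 of both groups, and −2.76 to −2.82 without wild-type replicate 1, wild-type replicate 3, morphant replicate 3 or replicate 3 of both groups. In the study, *in situ* hybridization showed loss or severe reduction of *sox9b* in the OEPD of mutants that lack both knockdown targets. No injection is described for these mutants. *irx1b* averaged 22.7 ± 7.12 CPM in morphant and 57.5 ± 40.1 CPM in wild-type samples (log2 fold change −1.19, adjusted p = 0.0509), and DESeq2 did not call it (adjusted p = 0.150 with and 0.135 without the replicate term). *tfap2a*, an activator of early ectoderm and crest genes, averaged 87.9 ± 26.7 CPM in morphant and 143.9 ± 13.9 CPM in wild-type samples (log2 fold change −0.76, adjusted p = 0.0271). *pax8*, whose elements drive the sorted reporter, was not called, with a log2 fold change of 0.35 (SE 0.16, adjusted p = 0.241, edgeR). However, *pax8* was called higher without wild-type replicate 2 (0.49, adjusted p = 0.0887) and without replicate 2 of both groups (0.63, adjusted p = 0.0125). With all 6 samples and no filter on low counts it was also called higher (0.36, adjusted p = 0.0508). The median of the list was −0.64, with 15 negative and 5 positive values, and 6 members had an unadjusted p under 0.05 in edgeR's test. The share of all tested genes under that unadjusted p was not taken, so no excess is read from the 6. *sox9b* was not called without replicate 1 of both groups or without morphant replicate 1 or 2, *tfap2a* without replicate 1 of both groups, morphant replicate 2 or wild-type replicate 1, and *irx1b* in 6 of the 9 fits with samples left out, those without replicate 1 or 2 of both groups, any 1 morphant sample or wild-type replicate 2 (log2 fold change −0.60). The count moved with the samples, and so did the count over all tested genes, which was 1911 in the main fit and is given in brackets. It was 14 without replicate 3 of both groups (3955) and 6 without wild-type replicate 3 (2407). It was 2 without wild-type replicate 1 (1263) or with DESeq2 (1985 with and 2953 without the replicate term). It was 1 without morphant replicate 1 (985), and 0 without replicate 1 of both groups (185) or without morphant replicate 2 (932). With no filter on low counts it was 8 (2851).

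The preplacodal and OEPD factors were also set against *dlx3b* within each sample, a scale chosen after seeing that both moved together between replicates. On the CPM scale, 4 of the 20 factors were lower in every morphant sample than in every wild-type sample and 16 overlapped, against 16.4% lower without overlap among all tested genes. As a ratio of counts to those of *dlx3b*, 11 of the 20 were lower without overlap, 9 overlapped and 0 were higher, against 4.54% lower and 0.108% higher of 17520 tested genes. Since *dlx3b* itself is in every ratio, the 20 values are not independent, and each non-overlap has an exact permutation p of 0.1, the smallest that 3 against 3 samples can give. Division by *dlx3b* also narrows the spread of genes that move with it and widens that of others. Over the wild-type samples, the SD of log2 values was 1.14 for *six1b* CPM and 0.24 for its ratio. For *gata2a* it was 0.12 and 1.27. The share over all genes is therefore no like measure, and no conclusion is drawn from the difference.

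Bmp signals set the level of *dlx3b* at the ectoderm border. Of 9 Bmp ligands and targets 5 rose in morphant samples and 0 were called lower (4.85% and 6.05% of all tested genes), with a median log2 fold change of 0.43. The ligand gene *bmp4* averaged 51.3 ± 18.2 CPM in morphant and 26.7 ± 4.40 CPM in wild-type samples (log2 fold change 0.90, SE 0.16, adjusted p = 0.0190, edgeR). The homeobox repressors *vent*, *vox* and *ved*, which are targets of Bmp in the gastrula, had log2 fold changes of 1.36, 0.69 and 0.81, and *vent* was at 126.9, 93.0 and 72.8 CPM in morphant replicates 1, 2 and 3, against 35.3, 29.9 and 48.4 CPM in the wild-type replicates 1, 2 and 3. The inhibitory Smad gene *smad6b* rose by 0.43 (adjusted p = 0.0681). The target *id1* was not called and had a negative value of −0.36 (adjusted p = 0.171), so the direction was not shared by all targets. None of the 5 was called without replicate 1 of both groups, a fit that called 185 of all tested genes, against 1911 in the main fit. *smad6b* was also not called without replicate 2 of both groups or without morphant replicate 1 or 2.

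Fgf signals induce the OEPD together with Dlx3b/4b. Of 11 Fgf ligands and targets 4 rose in morphant samples and 0 were called lower (4.85% and 6.05% of all tested genes), with a median of 0.25. All 4 are targets: *etv5b*, an Ets factor (311.3 ± 25.9 CPM in morphant and 214.2 ± 17.0 CPM in wild-type samples, log2 fold change 0.54, adjusted p = 0.0175, edgeR), and the feedback inhibitors *il17rd* (0.63, adjusted p = 0.0113), *spry1* (0.36, adjusted p = 0.0831) and *spry4* (0.35, adjusted p = 0.0789). In the study, *in situ* hybridization on embryos from carriers of a *dlx3b/4b* deletion showed no striking difference in *etv5b*. The authors presume that the rise is too moderate for that method to resolve. The ligand genes *fgf3*, *fgf8a* and *fgf10a* were not called, with log2 fold changes of −0.17, 0.34 and −0.68. The count was 0 without replicate 1 of both groups and 2 without replicate 2 of both groups, morphant replicate 1 or wild-type replicate 1. It was 6 without replicate 3 of both groups or with DESeq2 and no replicate term. Of all tested genes, 185 were called without replicate 1 and 3955 without replicate 3 of both groups, against 1911 in the main fit. *spry4* was lost in 7 of the 9 fits with samples left out, all but those without replicate 3 of both groups or morphant replicate 3, and *spry1* in 4, those without replicate 1 or 2 of both groups, morphant replicate 1 or wild-type replicate 1.

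Of these 14 called genes of the 4 lists, 14 were still called without the replicate term and 13 with DESeq2 either way. With a replicate number of both groups left out, 14 were called without replicate 3, 10 without replicate 2 and 0 without replicate 1. Those 3 fits called 3955, 1009 and 185 of all tested genes, against 1911 in the main fit. The fits without 1 sample also held no replicate term. They kept 8 without morphant replicate 1, 8 without morphant replicate 2, 13 without morphant replicate 3, 11 without wild-type replicate 1, 11 without wild-type replicate 2 and 12 without wild-type replicate 3.

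**Figure D5:**
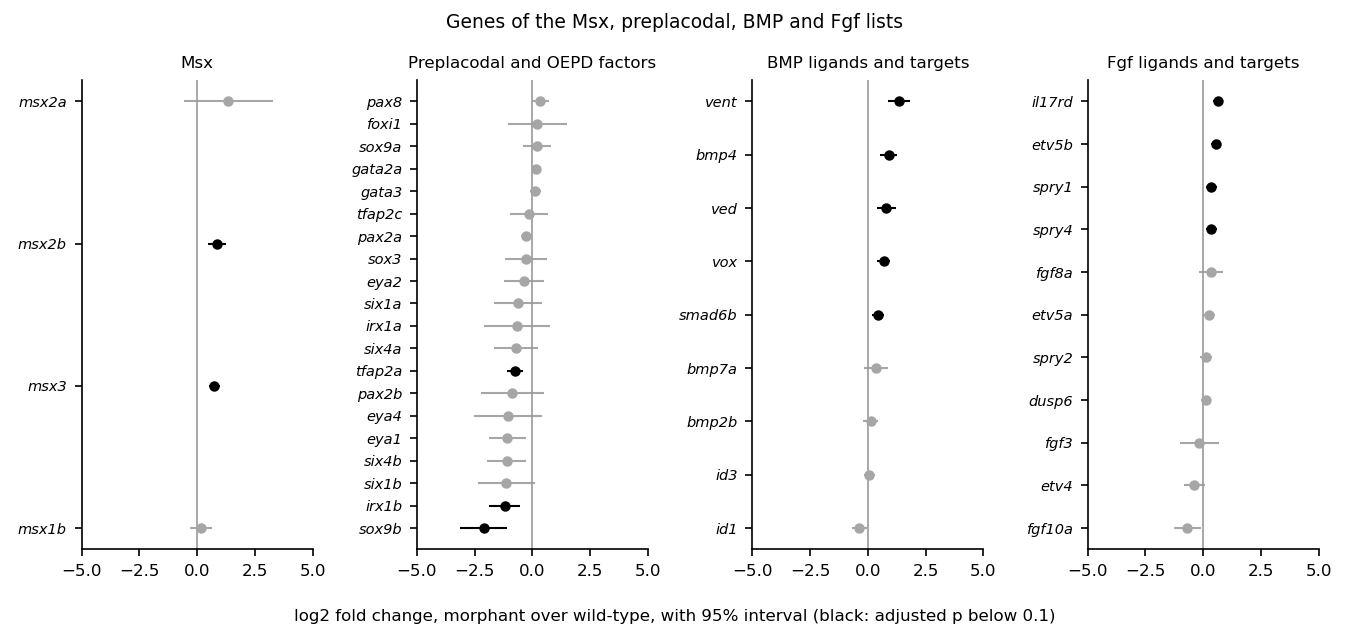
Log2 fold change, morphant over wild-type, with 95% interval from edgeR for the members of the Msx, preplacodal and OEPD, Bmp and Fgf lists; black points have an adjusted p below 0.1. All 11 called genes of the Msx, Bmp and Fgf lists lie to the right of 0, and the 3 called preplacodal and OEPD factors lie to the left.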

How the data were processed

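RNAseq was performed on FAC-sorted *pax8*:DsRed-positive cells of 3 *dlx3b/4b* morphant and 3 wild-type samples, described as biological replicates and numbered 1 to 3 in the labels. The authors deposited raw read counts per Ensembl gene from featureCounts, without normalization. The sources differ: the submitters' processing notes name genome GRCz10 and featureCounts 1.5.2, whereas the methods of the study name a later build and version with GSNAP and uniquely aligned reads, so the build of the coordinates given here was not settled. They also differ on the library type (strand-specific or not), and whether strand was used in counting is not given in the sources used here. All 92 spike-in features had 0 counts.

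Identifiers were paired with symbols through a table that names 26433 of them. Where it gives a human-style symbol, the zebrafish symbol was assigned if its RefSeq chromosome held a single such gene. *msx1a*, *nkx2.1* and *tnnc2* remained unpaired.

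From the counts, edgeR 4.0.16 in R 4.3.3 was run with filterByExpr, TMM normalization, and the quasi-likelihood test. Its model held the condition and, as a block, the replicate number, since the methods of the study control for clutch. CPM and RPKM used TMM-scaled totals and the listed exon lengths. Alternatives were no replicate block, DESeq2 1.42.0 with and without it, RLE size factors, no filter, a minimum of 10 counts a sample, a threshold of 0.05, and leaving out replicates. Fits without a replicate number of both groups kept the block and had few samples from which to estimate the spread. Those without 1 sample had no block, so they differ from the main fit in the model as well as in the sample. The code was tested on simulated data. Genes named are the 8 *dlx* genes, the nearest listed gene on each side of each locus, the 5 genes most like *dlx3b* and *dlx4b*, *pax8*, and list members that were called, up to 5 in each direction; members named beyond these were chosen after their values were seen. The *dlx* genes and lists were chosen with earlier results of these data known. The sequences of the *dlx* genes are not analysed here. Figures were drawn with matplotlib 3.10.9.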

Additional observations from a re-analysis of the deposited data

How the results depend on the processing

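Of all tested genes, 1911 were called; the count was 2953 with DESeq2 and no replicate block, 997 at an adjusted p below 0.05, and 185 to 3955 with samples left out (lowest without replicate 1, highest without replicate 3 of both groups). The number of *dlx* genes called was 0, but 1 with no filter on low counts (*dlx5a*, log2 fold change −1.03) and 0 to 3 with samples left out. Ranges of the log2 fold change with samples left out were −0.37 to 1.40 for *dlx3b*, −1.07 to 1.29 for *dlx4b*, −0.11 to 1.09 for *dlx4a*, −1.21 to 0.89 for *dlx2a*, −1.08 to −0.21 for *dlx2b* and −1.29 to −0.62 for *dlx5a*. The log2 ratio of *dlx5a* to *dlx6a* turned to −0.27 with 5 counts added; its range with 1 sample left out was 0.15 to 1.21, and that of *dlx1a* to *dlx2a* 0.30 to 1.31. The cause of these shifts was not tested. With no replicate block 2405 genes and 0 *dlx* genes were called, and the log2 fold changes of *dlx3b* and *dlx4b* were 0.48 and 0.06. Same-numbered morphant and wild-type samples correlated in their deviations at r = 0.16, 0.05 and −0.14 for numbers 1, 2 and 3. The highest value was that of morphant replicate 3 and wild-type replicate 2 (0.22). No test was run on these values, so whether the numbers pair the samples is not settled. Levels in TPM were above those in RPKM, with *dlx3b* at 138.6 TPM in morphant and 94.0 TPM in wild-type samples. Adding 0 counts could be run only for *dlx3b* and *dlx4b*. The alternatives for list members and the ratios to *dlx3b* were chosen after seeing the data. *dlx1a* and *dlx6a*, at 0 to 20 counts a sample, are limited by depth. Low counts also limit *dlx4a*, at 7 to 27 counts a sample, and *dlx2a*, with 4 counts in morphant replicate 1. The tested members are limited by the spread between 3 samples a group, and the parts of depth and spread were not separated.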

Other observations

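Relative to the counts of *dlx3b* in the same sample, *sox9b* was at 0.522, 0.440 and 0.305 in morphant replicates 1, 2 and 3, against 2.22, 3.04 and 2.96 in wild-type replicates 1, 2 and 3, a difference of −2.72 on the log2 scale. The ratio of *six1b*, a homeobox gene of the preplacodal region, was 0.177, 0.107 and 0.137 in the morphant samples, against 0.388, 0.472 and 0.538 in the wild-type samples (−1.75). *eya1* and *eya4*, whose products act with such homeobox factors, differed by −1.67 and −1.61. Every such difference also carries the log2 fold change of *dlx3b*, a knockdown target (0.54, SE 0.53). Without this divisor the log2 fold change of *sox9b* was −2.11. On the CPM scale *six1b*, *eya1* and *eya4* overlapped between the groups and were not called (adjusted p = 0.261, 0.107 and 0.380, edgeR). The ratio of *eya4* stayed within 0.112 to 0.115 in the wild-type samples, although its CPM there was 5.34, 16.6 and 3.43. The ratios of *foxi1*, *gata2a*, *gata3*, *tfap2a*, *tfap2c*, *pax8*, *pax2a*, *pax2b* and *sox9a* overlapped between the groups.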
